A study of Glycine max with 11 samples.

Results

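The 5 genes described here encode the enzymes that build raffinose family oligosaccharides in soybean (Glycine max) seeds. They were taken by identifier from the 56044 genes of the count table, with earlier results of these data known. Each is counted as a single transcript. Glyma.03G229800.1 and Glyma.20G094500.1 are those of 2 galactinol synthase genes, Glyma.06G179200.1 and Glyma.05G003900.1 those of the raffinose synthase genes RS2 and RS3, and Glyma.19G217700.1 that of a stachyose synthase gene. By their identifiers they lie on chromosomes 3, 20, 6, 5 and 19. Total RNA of whole seeds of cultivar BRS284, grown in the field, had been sequenced in 11 libraries of single-end reads of 100 bp. Stage 7.2 was sampled in both conditions, as seeds dried after harvest at 40% relative humidity and 30 °C to a moisture of 10% of dry weight (2 libraries) and freshly harvested seeds (2 libraries). Freshly harvested seeds also gave 1 library each at stages 7.1, 7.3, 8.1, 8.2 and 8.3 and 2 at stage 9. Stage 7.2 lies at the end of seed filling, stage 8.1 at the onset of drying on the plant, and stage 9 is the mature dry seed. Seeds of many plants of a single crop were pooled at each stage, and the labels call repeated libraries replicas without naming separate cultures or harvests, so the p-values below measure only the spread between these libraries.

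Raffinose family oligosaccharides are soluble sugars that accumulate late in the development of legume seeds. They are known as a carbon reserve, while the study calls their part in dry-state survival controversial. Galactinol synthase joins galactose from UDP-galactose to myo-inositol. Raffinose synthase moves the galactose of galactinol to sucrose, which gives raffinose, and stachyose synthase adds a further galactose to raffinose, which gives stachyose, the main oligosaccharide of this family in mature soybean seeds.

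The libraries held between 12881662 and 60626937 counts, both extremes in dried seeds, and 34689 to 41253 genes with at least 1 count. At stage 7.1 the 10 most abundant genes took 33.9% of all counts, against 10.3% to 16.0% in the other libraries. The levels below are normalized counts, that is, deposited counts divided by a DESeq2 size factor computed over all 11 libraries. All 5 seed genes on the marker list (lectin, a Kunitz trypsin inhibitor and 3 oleosins) were detected in every library, with summed normalized counts of 38184 and 110685 in dried seeds against 62484 to 95145 in fresh seeds of stage 7.2. The dried libraries differed from each other in part of these genes, with 8853 and 35335 normalized counts of the Kunitz inhibitor Glyma.01G095000 against 7724 and 12688 in fresh seeds of stage 7.2. They also differed in the oleosin Glyma.04G077600, with 5025 and 19835 in dried seeds against 9866 and 14510 in fresh seeds. The same held for the oleosin Glyma.06G078700, with 20866 and 52038 against 38517 and 58010. The dried libraries were close to each other in the lectin Glyma.02G012600, with 3331 and 3358 in dried seeds against 5915 and 9326 in fresh seeds. They were also close in the oleosin Glyma.20G196600, with 108 and 119 against 463 and 612. Of 2 chlorophyll a-b binding protein genes, listed as a sign of green tissue, the summed normalized counts were 140.0 and 419 in dried seeds. They were 83.1 and 86.7 in fresh seeds, with Glyma.01G204700 at 0 in all 4 libraries. This sum was 50.6 at stage 7.1, described as having green seeds, and 217 at stage 7.3, described as having yellow seeds. It thus did not follow seed colour. The part of these differences in the results below was not tested. Seeds were extracted whole, so fewer cells of a type and less RNA per cell cannot be told apart. The 5 synthesis genes together made up 4711 and 2919 CPM (counts scaled to the library total) in dried seeds and 3875 and 4139.7 CPM in fresh seeds of stage 7.2. Over the fresh stages their sum was 171 CPM at stage 7.1, 3498 at 7.3, 2057 at 8.1, 965 at 8.2, 1811 at 8.3 and 1803 and 1884 at stage 9.

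Both galactinol synthase genes, which stand at the entry to the pathway, had their highest mean normalized count of all 8 conditions in dried seeds, although by CPM Glyma.20G094500 was higher at stage 7.3. Glyma.03G229800 had 1308 and 1249 normalized counts in dried seeds, against 379 and 377 in fresh seeds of the same stage. In the other fresh seeds it had 80.0 normalized counts at stage 7.1, 700.1 at 7.3, 542 at 8.1, 277 at 8.2, 368 at 8.3, and 512 and 626 at stage 9. Its fresh level was thus lowest at stage 7.1 and highest at stage 7.3, an 8.75-fold range, and neither dried library overlapped any fresh one. Glyma.20G094500 had 3907 and 3112 normalized counts in dried seeds, against 922 and 871 in fresh seeds of stage 7.2. In the other fresh seeds it had 110.4 normalized counts at stage 7.1, 2878 at 7.3, 1314 at 8.1, 749 at 8.2, 794 at 8.3, and 1226 and 1125 at stage 9. The order of stages was nearly that of the first gene over a wider range, 26.1-fold, and the fresh library of stage 7.3 came close to the lower dried library. By CPM the dried libraries lay on either side of stage 7.3, at 153.8 and 89.96 in dried seeds against 124.9 at stage 7.3.

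Raffinose synthase RS2 and RS3 make the same sugar but differed in pattern over maturation. RS2 had 67393 and 58962 normalized counts in dried seeds, against 29089 and 35386 in fresh seeds of stage 7.2. In the other fresh seeds it had 1975 normalized counts at stage 7.1, 26593 at 7.3, 16038 at 8.1, 9504 at 8.2, 25762 at 8.3, and 23771 and 24217 at stage 9. The dried libraries were again above every fresh one, and the fresh range was 16.3-fold between stages 7.2 and 7.1. By CPM the gap was small for the second dried library, with 2653 and 1705 in dried seeds against 1471 and 1629 in fresh seeds of stage 7.2. RS3 had 5.92 and 35.9 normalized counts in dried seeds, against 318 and 207 in fresh seeds of stage 7.2. In the other fresh seeds it had 258 normalized counts at stage 7.1, 20.3 at 7.3, 3.2 at 8.1, 2.00 at 8.2, 0 at 8.3, and 2.70 and 3.45 at stage 9. RS3 was therefore a transcript of the earliest fresh stages, and from stage 8.1 on it rested on 0 to 3 deposited counts a library. The 0 of 22707980 counts at stage 8.3 allows a level of up to 0.132 CPM (3 counts, counting error only).

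Stachyose synthase, the last enzyme of the chain, had a high level at the end of seed filling with or without drying. It had 47075 and 37603 normalized counts in dried seeds, against 45933 and 53057 in fresh seeds of stage 7.2. In the other fresh seeds it had 1748 normalized counts at stage 7.1, 50425 at 7.3, 26153 at 8.1, 8417 at 8.2, 16651 at 8.3, and 17491 and 19695 at stage 9. Dried and fresh libraries of stage 7.2 overlapped in normalized counts but not by CPM, with 1853 and 1087 CPM in dried seeds against 2322 and 2443 in fresh seeds, and the fresh range was 28.9-fold between stages 7.3 and 7.1. Whether stage 7.2 or 7.3 was highest cannot be said, since the stages differed by less than the 2 libraries of stage 7.2 did.

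**Figure D1:**
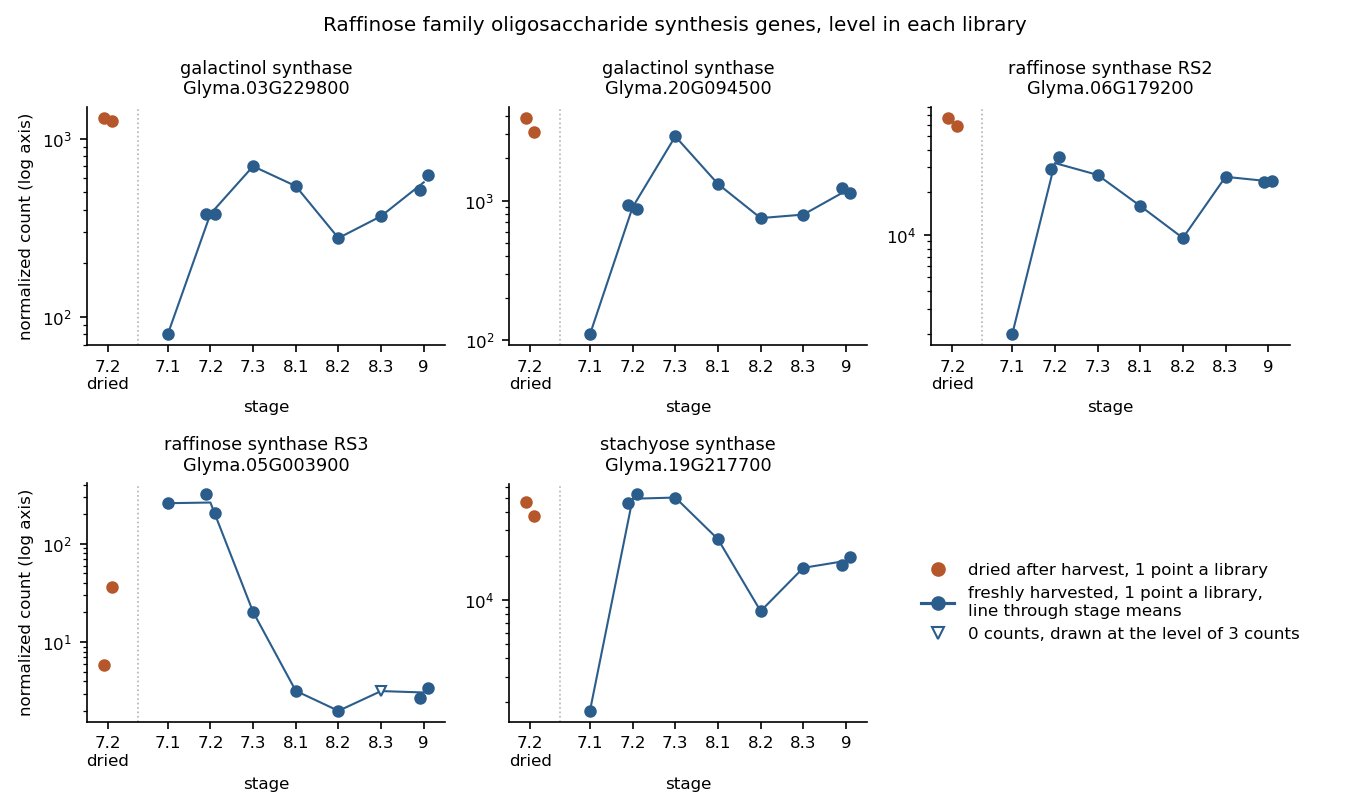
Normalized counts of each of the 5 genes (log axis) in every library, with the dried seeds of stage 7.2 on the left and the fresh stages in order to their right. Each point is a library, lines join the means of the fresh stages, and an open triangle marks 0 counts, drawn at the level of 3 counts. Dried points of both galactinol synthase genes and of RS2 lie above all fresh points on this scale (not by CPM for Glyma.20G094500), whereas RS3 is at 318 and 207 in fresh seeds of stage 7.2 and near 3 from stage 8.1 on.

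Step by step, 4 of the 5 genes shared an increase between stages 7.1 and 7.2 and a decrease from stage 7.3 to 8.2. Except for Glyma.20G094500, they also shared a partial recovery at stage 8.3, which for Glyma.03G229800 was small by CPM. The level at stage 7.2 was 28.3 times that at stage 7.1 for stachyose synthase, 16.3 times for RS2, 8.12 times for Glyma.20G094500 and 4.73 times for Glyma.03G229800. These 4 genes belong to the 15794 whose normalized counts averaged 100 or more, of which 27.2% were at least 2-fold and 9.39% at least 4-fold higher at stage 7.2 than at stage 7.1. All 4 were lowest at stage 7.1 and highest at stage 7.2 or 7.3, a pattern that 10.3% of the 15794 shared. RS3 stood apart here, at 1.02 times its level of stage 7.1. The next step, from stage 7.2 to 7.3, differed between the genes, also between the raffinose synthase genes RS2 and RS3. The galactinol synthase genes were higher at stage 7.3, by 3.21-fold for Glyma.20G094500 and 1.85-fold for Glyma.03G229800, whereas stachyose synthase was at 1.02 times and RS2 at 0.825 times its earlier level. RS3 was at 0.0772 times its earlier level, the steepest decrease of the 5 at this step. From stage 8.1 to 8.2 stachyose synthase was at 0.322 times, Glyma.03G229800 at 0.511 times, Glyma.20G094500 at 0.570 times and RS2 at 0.593 times its earlier level. In normalized counts all 4 were lower at stage 8.2 than at both 8.1 and 8.3, which also held for 36.0% of the 15794 genes. For Glyma.20G094500 this turned with the scaling, at 38.2 CPM at stage 8.2 and 32.98 at stage 8.3, and its step of 1.06-fold was no larger than its replicate differences. Glyma.03G229800 was at 14.1 CPM at stage 8.2 and 15.3 at stage 8.3, a smaller step than in normalized counts. The recovery from stage 8.2 to 8.3 was 2.71-fold for RS2, 1.98-fold for stachyose synthase, 1.33-fold for Glyma.03G229800 and 1.06-fold for Glyma.20G094500. An increase of at least 2-fold at this step was seen in 5.64% of the genes. These steps were not tested, and 5 of the 7 stages have 1 library. For scale, replicates of these 4 genes differed by 0.01 to 0.28 on the log2 scale at stage 7.2 and by 0.03 to 0.29 at stage 9.

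Dried and fresh seeds of stage 7.2 (2 libraries each) were compared with edgeR's quasi-likelihood test and Benjamini-Hochberg adjustment over all 30132 genes tested. Drying took 2 days, and no library held seeds kept as long without drying. Drying and time after harvest therefore cannot be told apart. A gene was called at a change of at least 2-fold with an adjusted p under 0.05. Both galactinol synthase genes rose, RS3 fell, and RS2 and stachyose synthase were not called. Set beside these 2 of 5 higher and 1 of 5 lower, 32.8% of all genes tested were called, 15.0% higher and 17.9% lower. At any fold, 4 of the 5 and 40.9% of all genes had an adjusted p under 0.05, and the median log2 fold change was 0.99 over the 5 genes and -0.05 over all. These counts include RS3, the 1 called lower, which entered the test only through the fresh seeds, where it was high. Glyma.20G094500 rose by a log2 fold change of 1.99 (SE 0.223, 95% interval 1.44 to 2.53, adjusted p = 0.00318). The rise of Glyma.03G229800 was 1.78 (SE 0.182, 95% interval 1.33 to 2.22, adjusted p = 0.00274). The galactinol synthase genes thus changed by similar amounts, with intervals that overlap widely. RS2 had a log2 fold change of 0.99 (SE 0.305, 95% interval 0.24 to 1.74, adjusted p = 0.045), just short of the 2-fold threshold, and passed it at 1.02 (adjusted p = 0.0405) when DESeq2's size factors replaced TMM in edgeR. Its edgeR adjusted p was 0.0559 with a replicate block and 0.0651 with at least 10 counts in every library. It was 0.0154 without a low-count filter and 0.00709 in a single fit of 11 libraries, both short of 2-fold. DESeq2 gave RS2 a log2 fold change of 1.004 (adjusted p = 0.00254), which passed both thresholds. The log2 fold change was 0.85 and 1.13 without the first and the second fresh library, and 0.90 and 1.09 without the first and the second dried library. For stachyose synthase it was -0.21 (SE 0.305, 95% interval -0.95 to 0.54, adjusted p = 0.61), an interval that lies within 2-fold and spans 0. Scaled by library totals alone, an alternative chosen after seeing the data, the median of all genes moved to -0.60 and RS2 was at 0.49 (adjusted p = 0.263).

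In dried against fresh seeds RS3 fell by 3.35 on the log2 scale (SE 0.574, 95% interval -4.75 to -1.94, adjusted p = 0.00825, edgeR). It entered the test only through the fresh seeds of stage 7.2, where it was high. The deposited counts behind this were 3 and 63 in dried seeds and 562 and 303 in fresh seeds. Scaled by the summed size factors, RS3 was at 10.9% of its fresh level in dried seeds (exact 95% interval 8.37% to 14.0%, counting error only), and scaled by library totals at 6.93%. The dried libraries themselves differed, at 0.233 and 1.04 CPM, or by 2.60 on the log2 scale of normalized counts, against 0.07 to 0.33 for the other 4 genes. The fitted log2 fold change was -5.43 without the second dried library and -2.84 without the first.

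**Figure D2:**
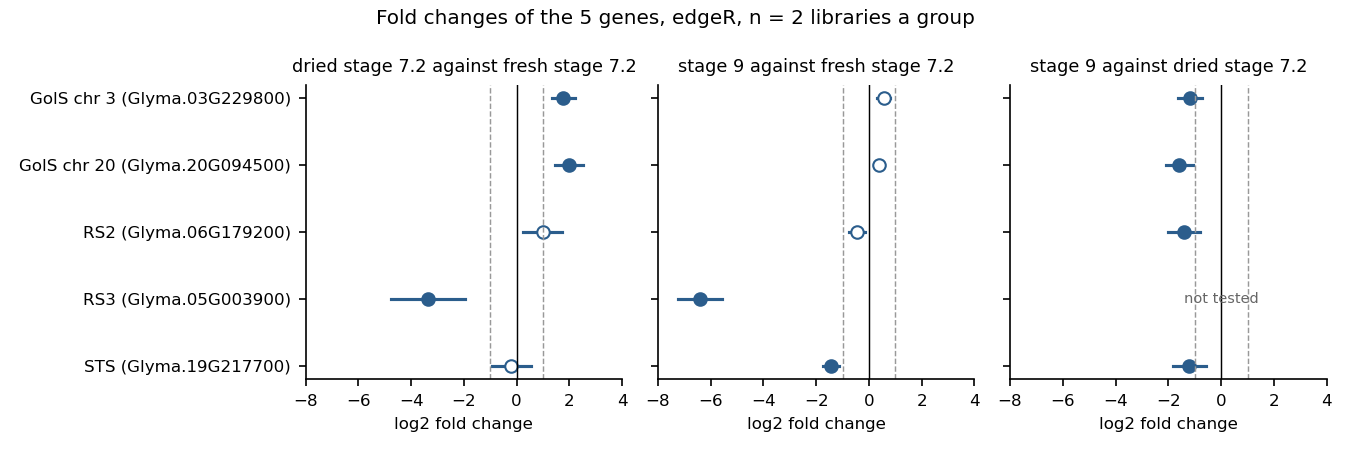
Log2 fold change of each gene in the 3 comparisons, with bars for 95% intervals from edgeR and dashed lines at 2-fold in either direction. Filled points were called, open points were not, and RS3 was not tested in stage 9 against dried stage 7.2. Galactinol synthase points lie at 1.78 and 1.99 for dried against fresh seeds and at -1.19 and -1.59 for stage 9 against dried seeds.

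Seeds that matured on the plant were compared with the seeds at the end of filling, stage 9 against fresh stage 7.2 (2 libraries each, 29707 genes tested). Stachyose synthase and RS3 fell, and the other 3 genes changed by less than 2-fold. Of all genes tested, 44.9% were called, 17.8% higher and 27.1% lower, and 73.6% had an adjusted p under 0.05 at any fold, as all of the 5 had. The median log2 fold change was -0.44 over the 5 genes and -0.10 over all. Stachyose synthase averaged 18593 ± 1559 normalized counts at stage 9 and 49495 ± 5037 in fresh seeds of stage 7.2 (SD, n = 2 each). Its log2 fold change was -1.43 (SE 0.138, 95% interval -1.73 to -1.13, adjusted p = 2.56e-06, edgeR). RS3 had 3 counts in each library of stage 9 against 562 and 303 in fresh seeds of stage 7.2. Its level at stage 9 was 1.13% of that in fresh seeds of stage 7.2 (exact 95% interval 0.415% to 2.48%, counting error only). This is 88.3-fold lower (40.4 to 241), and edgeR gave an adjusted p of 5.08e-08 for RS3. Here too it entered the test only through the fresh seeds of stage 7.2. The galactinol synthase genes were above their level of stage 7.2 at stage 9, by log2 fold changes of 0.57 (95% interval 0.32 to 0.81, adjusted p = 0.000653, edgeR) for Glyma.03G229800 and 0.37 (0.18 to 0.57, adjusted p = 0.00254) for Glyma.20G094500. RS2 was below it, at -0.44 (-0.73 to -0.15, adjusted p = 0.0102, edgeR). These 3 intervals lie wholly within 2-fold. In a single fit over all 11 libraries, the adjusted p was 0.0878 for Glyma.20G094500 and 0.118 for RS2. Scaled by library totals alone, Glyma.20G094500 was at 0.17 (adjusted p = 0.16, edgeR). Under this scaling Glyma.03G229800 was at 0.37 (adjusted p = 0.0141) and RS2 at -0.64 (adjusted p = 0.000264). By CPM the libraries of Glyma.20G094500 overlapped, at 51.4 and 46.4 at stage 9 against 46.6 and 40.1 in fresh seeds of stage 7.2.

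The third comparison set the 2 kinds of dry seed side by side, mature seeds of stage 9 against immature seeds dried at stage 7.2 (2 libraries each, 25797 genes tested). All 4 genes tested were lower at stage 9. Only 7.79% of all genes were called, 2.76% higher and 5.02% lower, and 9.15% had an adjusted p under 0.05 at any fold. These 4 genes are also on the list that the study drew from these same libraries, so their count is not independent evidence of the direction. Glyma.20G094500 fell by 1.59 on the log2 scale (SE 0.204, 95% interval -2.11 to -1.08, adjusted p = 0.0269, edgeR). RS2 fell by 1.41 (SE 0.240, 95% interval -2.02 to -0.81, adjusted p = 0.0354), and averaged 23994 ± 315 normalized counts at stage 9 and 63178 ± 5961 in dried seeds (SD, n = 2 each). Glyma.03G229800 fell by 1.19 (SE 0.183, 95% interval -1.65 to -0.73, adjusted p = 0.0314). Stachyose synthase, at 17491 and 19695 normalized counts at stage 9 against 47075 and 37603 in dried seeds, had an interval of -1.82 to -0.59 (SE 0.247, adjusted p = 0.0463), and its adjusted p was 0.0606 with a replicate block. Scaled by library totals alone, Glyma.20G094500 was still called, but the adjusted p was 0.0598 for RS2, 0.1002 for Glyma.03G229800 and 0.107 for stachyose synthase. The median over the 4 was -1.31, against -0.05 over all genes. RS3 was too low for edgeR's filter, with 3 and 3 counts at stage 9 and 3 and 63 in dried seeds. Summed over libraries, it was at 10.4% of the dried level (exact 95% interval 3.68% to 23.8%, counting error only). This interval leaves out the spread between the dried libraries, at 5.92 and 35.9 normalized counts, against 2.70 and 3.45 at stage 9. With either of the stage 9 libraries left out, edgeR called no gene at all. In those fits the 4 genes kept log2 fold changes of -1.65 to -1.04 and unadjusted p under 0.05, with adjusted p from 0.234 to 0.496, and edgeR's unadjusted p was under 0.05 for 3198 and 3898 genes, while DESeq2 called 186 and 333, none of the 4 among them.

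The 3 comparisons share their libraries in pairs, so their values are given side by side and not as separate evidence. For the galactinol synthase genes the level in dried seeds was above stages 7.2 and 9, both fresh. For stachyose synthase the level of stage 9 was below both conditions of stage 7.2. In normalized counts RS2 in dried seeds exceeded every fresh stage, by 1.96-fold at stage 7.2, 2.38-fold at stage 7.3 and 2.63-fold at stage 9. Dried seeds also exceeded stage 7.3, the fresh maximum of the galactinol synthase genes, by 1.83-fold for Glyma.03G229800. For Glyma.20G094500 the ratio was 1.22-fold in normalized counts, and its direction turned by CPM, as given above. The dried libraries of RS3 lay on either side of its level at stage 7.3.

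Ratios of counts within a library do not depend on its scaling, and they moved between conditions. Since transcript lengths were not used, only their changes can be read and not which gene was higher. Stachyose synthase gave 0.699 and 0.638 counts for each count of RS2 in dried seeds, against 1.58 and 1.5 in fresh seeds of stage 7.2. The groups did not overlap, and the ratio in dried seeds was 0.434 times that in fresh seeds. At stage 9 the ratio was 0.736 and 0.813, or 0.503 times that in fresh seeds of stage 7.2. Dried seeds and seeds of stage 9 thus both had a lower ratio than fresh seeds of stage 7.2, although RS2 was high in dried seeds and stachyose synthase low at stage 9. In a two-sided exact permutation test each of these differences had p = 0.333, the smallest that 2 libraries against 2 can give. Across the fresh stages the ratio was 0.885 at stage 7.1, 1.90 at 7.3, 1.63 at 8.1, 0.886 at 8.2 and 0.646 at 8.3. It was highest at stage 7.3 and had its low at stage 8.3, where RS2 had recovered more than stachyose synthase.

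The ratio of Glyma.20G094500 to Glyma.03G229800 compared the 2 galactinol synthase genes. It was 2.99 and 2.49 in dried seeds, against 2.43 and 2.31 in fresh seeds of stage 7.2, and the exact permutation p was again the smallest possible, 0.333. At stage 9 it was 2.39 and 1.80, which overlapped with fresh seeds of stage 7.2 (exact permutation p = 0.667). The single library of stage 7.3 stood highest, at 4.11, and that of stage 7.1 lowest, at 1.38 with an exact 95% interval of 1.02 to 1.87 from counting error alone. The balance between the raffinose synthase genes shifted far more. RS3 gave 0.0878 and 0.610 counts for every 1000 counts of RS2 in dried seeds, against 10.9 and 5.85 in fresh seeds of stage 7.2, and 130.7 at stage 7.1.

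**Figure D3:**
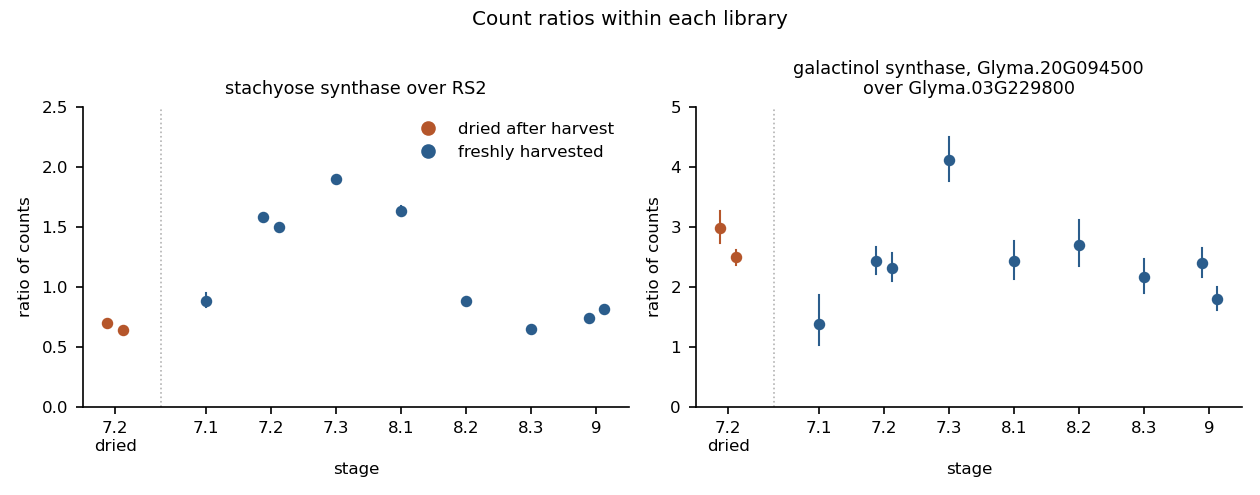
Within-library count ratios in every library, with dried seeds of stage 7.2 on the left and the fresh stages in order. Bars are exact 95% intervals from counting error. The ratio of stachyose synthase to RS2 is 0.699 and 0.638 in dried seeds and 1.58 and 1.5 in fresh seeds of stage 7.2, and the ratio of the galactinol synthase genes is highest at stage 7.3, at 4.11.

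Around the 5 genes, 6 others of the pathway and its supply of precursors could be named. All but 1 came from the study's list for stage 9 against dried seeds, so that comparison is not independent for them. Between dried and fresh seeds of stage 7.2, 2 of the 6 rose, none fell and 4 were not called, where 15.0% of all genes rose and 17.9% fell, so the share called (2 of 6) was near that of all genes, 32.8%. One that rose was a further galactinol synthase gene, Glyma.10G145300, with 51735 and 44435 normalized counts in dried seeds against 8959 and 10168 in fresh seeds. Its log2 fold change of 2.35 (adjusted p = 0.00384, edgeR) was in the same direction as those of the 2 galactinol synthase genes above. The other was the inositol monophosphatase gene Glyma.06G009800, whose enzyme releases the myo-inositol that galactinol synthase uses. It had 1004 and 2206 normalized counts in dried seeds against 157 and 167 in fresh seeds (log2 fold change 3.33, adjusted p = 0.00378, edgeR).

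At stage 9 against fresh stage 7.2, the same 2 genes rose and 3 of the 6 fell, where 17.8% of all genes rose and 27.1% fell. Glyma.10G145300 had a log2 fold change of 1.14 (adjusted p = 1.1e-05, edgeR) and so passed the 2-fold threshold that Glyma.03G229800 and Glyma.20G094500 did not reach, a difference between copies that was not tested. The UDP-glucose 4-epimerase gene Glyma.07G271200, whose enzyme makes UDP-galactose, fell by 3.19 (adjusted p = 2.5e-07, edgeR). The sucrose synthase gene Glyma.15G182600, whose enzyme cleaves sucrose, fell by 1.51, and the sucrose-phosphate synthase gene Glyma.08G308600, whose enzyme acts in sucrose synthesis, fell by 1.16. A second epimerase gene, Glyma.01G225800, had values of 0.36 for dried against fresh seeds and -0.04 for stage 9 against fresh seeds, neither called. At stage 9 against dried seeds 3 of the 6 fell and none rose, where 5.02% of all genes fell and 2.76% rose. Among the 3 was Glyma.10G145300 at -1.19 (adjusted p = 0.0476, edgeR). The study defines its mapped reads as those with an unambiguous place in the genome. The library totals equal its numbers of mapped reads wherever it lists them. Reads shared by near-identical copies could thus have been lost in any of these genes.

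**Figure D4:**
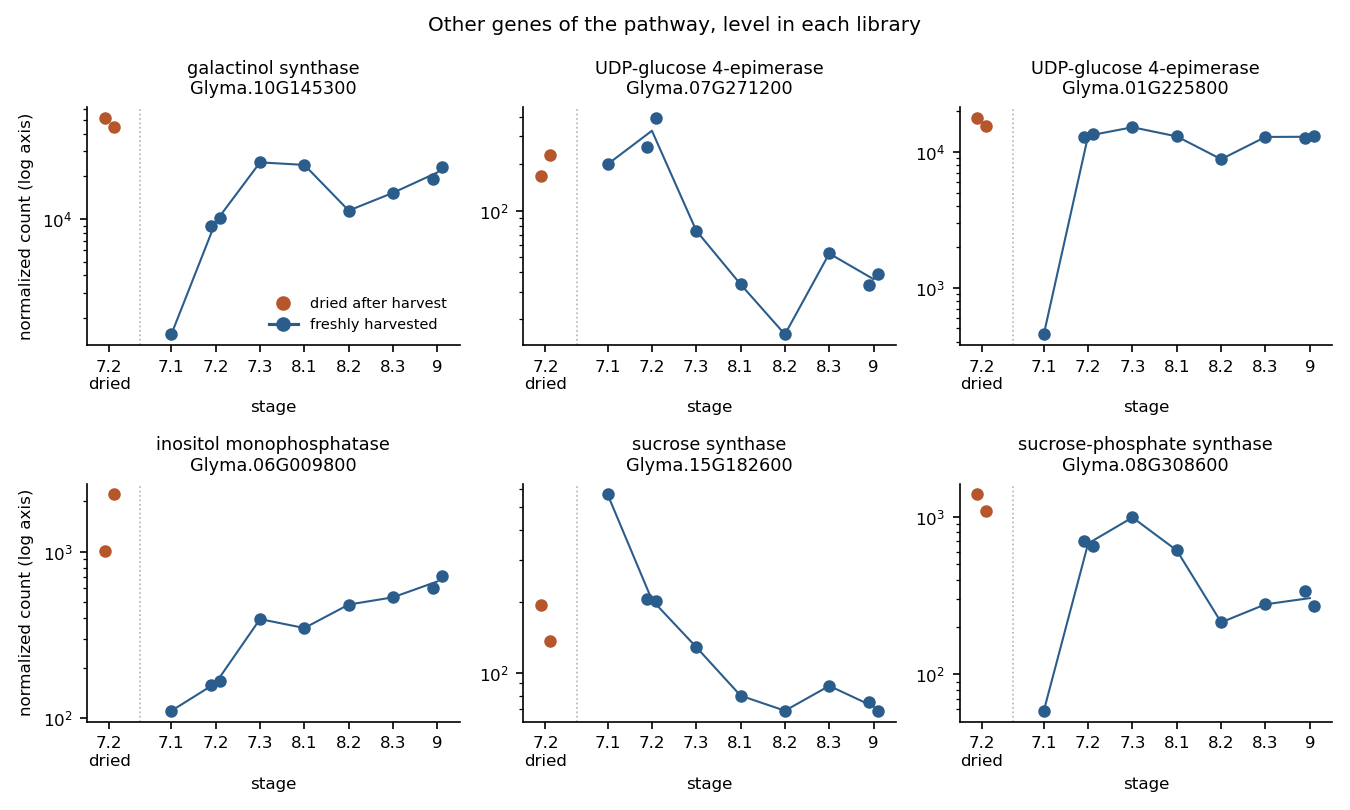
Normalized counts (log axis) of the 6 other pathway genes in every library, with dried seeds of stage 7.2 on the left and the fresh stages in order. Each point is a library, and lines join the means of the fresh stages. The galactinol synthase gene Glyma.10G145300 is at 51735 and 44435 in dried seeds and at 8959 and 10168 in fresh seeds of stage 7.2.

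Likeness of pattern was measured as Pearson's r of log2 mean levels over the 8 conditions, which share libraries, scaling and a strong contrast between stage 7.1 and the rest, and is given as a description. The galactinol synthase genes Glyma.03G229800 and Glyma.20G094500 had r = 0.980 with each other, and RS2 had r = 0.927 with stachyose synthase. Other pairs were also high. RS2 had r = 0.926 with Glyma.03G229800 and 0.898 with Glyma.20G094500, and stachyose synthase had 0.882 and 0.901 with these genes. RS3 had negative values with the other 4, between -0.351 and -0.131. Among the 15794 genes compared, the one most like RS2 was Glyma.08G057600, a gene for a protein with a rhodanese-like domain (r = 0.998). Among those most like stachyose synthase was Glyma.14G120300, which encodes a sugar transporter of the SWEET1 type (r = 0.997), second to the unnamed gene Glyma.04G225000 (r = 0.998). The genes closest to the galactinol synthase genes were Glyma.05G194100 for Glyma.03G229800 (r = 0.992) and Glyma.15G063300 for Glyma.20G094500 (r = 0.996). That closest to RS3 was Glyma.09G250200 (r = 0.992), which rests on few counts of RS3 after stage 7.3.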

How the data were processed

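The authors mapped their trimmed single-end reads to the Glyma.Wm82 soybean genome, using Bowtie2, and deposited unnormalized whole-number counts per transcript, 1 per gene. The counting program is not given in the sources used here. One line without a gene name held 0 counts (0%) and was left out. Libraries were assigned to groups by their labels.

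R 4.3.3, edgeR 4.0.16 (TMM, filterByExpr defaults, two-sided quasi-likelihood F test, Benjamini-Hochberg adjustment over all genes tested), which rests on limma 3.58.1, were used on the 4 libraries of each comparison, and genes were called at 2-fold and an adjusted p under 0.05. The standard error is the log2 fold change over the square root of F. Size factors came from DESeq2 1.42.0. A floor of 3 counts stands for 0. Reads without molecular identifiers are not independent molecules, so intervals of counts (exact, Clopper-Pearson, 95%) cover counting error only. Alternatives were DESeq2 and its size factors, no low-count filter or at least 10 counts in every library, a stricter adjusted p of 0.01, a single fit of 11 libraries, a replicate block, each replicate left out, other scalings of the levels, and library totals alone.

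All 5 genes are named. Of other genes, the text names the pathway genes found by enzyme name and, for each of the 5, the genes with the highest Pearson's r among genes whose normalized counts averaged 100 or more. Members and lists were chosen with earlier results of these data known. None of the 5 identifiers matched the gene table at hand (0 of 5), so names come from the study and its supplementary tables, parts of which were used, and RS3 was named by the gene list alone. The lists of pathway and marker genes are therefore short. Coordinates and sequences were not used here. The test code was checked on simulated data.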

Additional observations from a re-analysis of the deposited data

How the results depend on the processing

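For dried against fresh stage 7.2, 9894 genes were called, and 5920 with at least 10 counts in every library, 4864 at an adjusted p under 0.01 and 4857 to 13026 with a replicate left out, the lowest without the first fresh library. With at least 10 counts, 8292 genes were called at stage 9 against fresh stage 7.2 (13351 before) and 1 of the 5 genes, since RS3 could not be tested. Stage 9 against dried seeds was the least stable, with 2009 genes called, 4728 without a low-count filter, 3521 in a single fit of 11 libraries and 0 to 6160 with a replicate left out, the highest without the first dried library, and 0 to 5 of the 5 genes. At an adjusted p under 0.01 it gave 0 genes and 0 of the 5 (8179 genes at an unadjusted p under 0.05, and 1543 with DESeq2 at 0.01, 4 of the 5 among them). Library totals alone, chosen after seeing the data, gave 1 of the 5 there, Glyma.20G094500, and moved the median log2 fold change to -0.60 for dried against fresh seeds, -0.30 for stage 9 against fresh seeds and 0.28 for stage 9 against dried seeds, with 19.9%, 30.6% and 60.9% of calls higher (45.6%, 39.6% and 35.5% before). The log2 range over the fresh stages was 4.79 in CPM and 4.82 in TMM-scaled CPM for Glyma.20G094500 (4.70 as reported), 4.26 and 4.18 for RS2 (4.03, and 3.88 to 4.16 with a replicate left out), and 5.06 in CPM for stachyose synthase (4.85). No call of the 5 genes changed direction under these alternatives, and the causes of these changes were not tested.

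The replicate block gave 10072, 13338 and 3007 calls. Same-numbered libraries deviated together weakly (r = 0.0923, 0.180 and 0.184 across genes, which are not independent), and with 2 pairs they share only a number. Under the block stachyose synthase at stage 9 against dried seeds had a log2 fold change of -1.20 and an adjusted p of 0.0606 (edgeR). Depth limits RS3, which rests on 0 to 3 counts a library from stage 8.1 on.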
